A study of Mus musculus with 9 samples.

Results

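Translation initiation factors (eIFs) and elongation factors (eEFs) were followed at the RNA level in RAW264.7 cells, a mouse macrophage line. The members were the protein-coding genes of GENCODE M21 whose symbol begins with Eif or Eef and a digit, without the eIF2 kinases. This rule took 63 genes of the 28137 genes in the deposited values and used no measured value.

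The study addressed how SFRP2, a secreted protein of the Wnt pathway, acts on macrophages. RAW264.7 cells received control siRNA (NC), SFRP2 siRNA or RAB6A siRNA, with 3 libraries in each group and 9 in all. Per the labels, siRNA was used at 60 nM for 6 h, complete medium followed for 12 h, and all groups then received lipopolysaccharide (LPS) at 100 ng/ml for 24 h before RNA extraction. The study's methods instead give another siRNA concentration and add IFN-γ, so that the exact stimulation is uncertain, and an unstimulated group was not analysed here. The libraries labelled SFRP2 siRNA carry the same numbers as the siRNAs of the study, and it is not stated whether they received different siRNAs. It is also not stated whether the libraries of a group came from separate cultures, so the p-values measure only the spread between these libraries.

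Initiation of translation begins at the mRNA cap, where eIF4E binds, eIF4G forms a scaffold and eIF4A unwinds RNA. The small ribosomal subunit arrives with eIF3, eIF1, eIF1A and the ternary complex of eIF2, GTP and initiator tRNA, and eIF5 and eIF5B then lead to joining of the large subunit. In elongation, eEF1A brings aminoacyl-tRNA to the ribosome and eEF2 moves the ribosome along the mRNA. Macrophages that respond to LPS change the translation of many cytokine mRNAs, partly through 4E-BPs, the inhibitors that hold eIF4E until mTORC1 phosphorylates them.

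Depth was between 32758729 and 47149258 reads per library, as recovered from the FPKM values. The RAB6A siRNA group (32758729 to 37833882 reads) and the SFRP2 siRNA group (34743304 to 40562562 reads) were read less deeply than the NC group (41608379 to 47149258 reads). FPKM is a fragment count scaled to gene length and library size, so that levels of different genes can be set side by side. Macrophage markers were present in every library. Of 8 such markers, 4 (Lyz2, Csf1r, Spi1 and Fcgr1) were lower in RAB6A siRNA than in NC without overlap, 1 (Ptprc) was higher and 3 (Adgre1, Itgam and Cd68) overlapped. Of all genes tested, 38.2% were lower and 39.2% higher without overlap. In SFRP2 siRNA, 4 markers were lower than in NC without overlap, where 13.9% of all genes tested were. The summed level of the 8 markers was 2961 to 3255 FPKM in NC, 2611 to 2874 FPKM in SFRP2 siRNA and 2035 to 2184 FPKM in RAB6A siRNA. The part of these differences in the results was not tested. Markers of fibroblasts, endothelium, epithelium, B cells and red cells lay at or under 1.32 FPKM. Sfrp2 itself was near the detection limit, at 0.0197 to 0.0223 FPKM in NC and 0.0267 to 0.0478 FPKM in SFRP2 siRNA, and gives no check of that label. Rab6a lay between 24.3 and 27.3 FPKM in NC and between 20.4 and 21.2 FPKM in RAB6A siRNA, lower without overlap but by a small margin.

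The abundance of the members spanned a wide range. In NC, 13 members had a mean above 100 FPKM, 40 lay between 10 and 100 FPKM, 5 between 1 and 10 FPKM and 5 below, with a median of 31.0 FPKM. Eef1a1 and Eef2 were the most abundant. Eef1a1 alone made up 39.7% ± 1.05 (SD, n = 3) of the summed FPKM of all members in NC, and Eef2 made up 17.3% ± 0.690 (SD, n = 3). Eef1a2 and Eif5a2, the relatives of Eef1a1 and Eif5a that are made in few tissues, had at most 6 and 8 reads in any library. Both stayed below the filter in every comparison, as did Eef2k, the kinase that inhibits eEF2.

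Genes were tested with limma on log2(FPKM + 0.1), a scale that understates the change of low genes, and called at a Benjamini-Hochberg adjusted p under 0.05 over all genes tested. Genes entered with a mean of at least 0.5 FPKM over the 6 libraries compared. Of the members, 59 entered the comparison of SFRP2 siRNA with NC and 60 that of RAB6A siRNA with NC. Eif4ebp3 was the added member, and it passed the filter only through the RAB6A siRNA libraries where it was high, so that it had to differ. It is left out of the counts of that comparison unless stated. Both comparisons share the NC libraries.

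In the RAB6A siRNA libraries, the members divided. RNAs of the eIF4G scaffolds, of eIF2 and its exchange factor eIF2B, and of eIF5, eIF5B and eIF6 were mostly lower than in NC, whereas Eif4ebp1, Eef1a1, Eef1b2 and several subunits of eIF3 were higher. Of the other 59 members tested, 32 (54.2%) were lower and 16 (27.1%) were higher, and 11 were not called. Over all 12712 genes tested, 36.5% were called lower and 37.6% higher, so these libraries differed from NC in most genes. The median log2 fold change was -0.33 over the members and 0.03 over all genes tested. When an absolute log2 fold change over 1 was also required, 8 members were lower and 2 higher, where 12.8% and 17.3% of all genes passed. With GC content and gene length corrected for, 6 were lower and 2 higher past that threshold, where 1498 and 2038 of 12535 genes passed. In the uncorrected values the groups did not overlap for 34 members with lower and 17 with higher values, where 38.2% and 39.2% of all genes did so. In bulk RNA, a change in how many cells express a gene and a change in RNA per cell cannot be told apart.

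**Figure D1:**
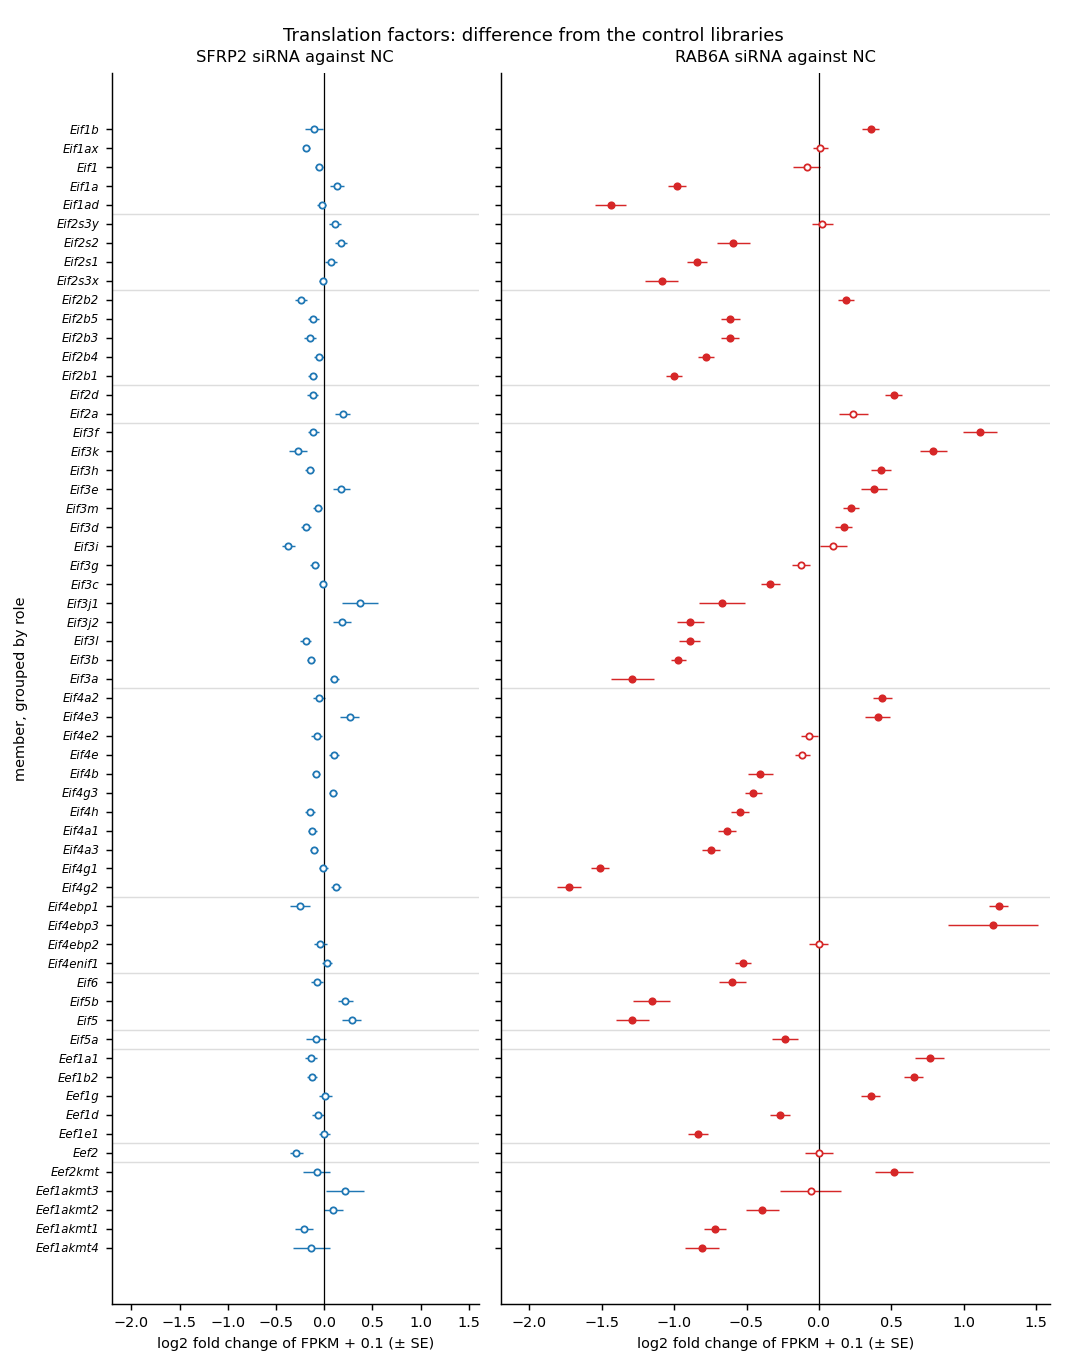
Log2 fold change of FPKM + 0.1 with its standard error for each member that passed the filter, grouped by role, for SFRP2 siRNA against NC on the left and RAB6A siRNA against NC on the right (3 libraries per group). Filled points mark an adjusted p under 0.05, which none reached on the left and 49 reached on the right, Eif4ebp3 among them, from -1.73 for Eif4g2 to 1.24 for Eif4ebp1.

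Promoters from RefSeq (GRCm38.p6), which cover 250 bases before to 50 after the start, matched 48 of the 63 members. Eif3i, Eef1d, Eef1akmt3, Eif3h, Eif4ebp1, Eif4e3, Eif4ebp3, Eif2b3, Eif3e, Eef1g, Eif4g2, Eef1akmt1, Eif3j2, Eif6 and Eif1a had no match. The E-box letters CACGTG, read on both strands, were found in 13 members (27.1%) and in 8.09% of all genes with a promoter. They were found in 3 of 11 members called higher in RAB6A siRNA and in 6 of 25 called lower. The ETS letters CCGGAAG were found in 16 members (33.3%) against 9.93% of all genes, and the YY1 letters AAGATGG in 8 members (16.7%) against 7.28%, each on both strands and with overlaps between motifs allowed. All genes here include noncoding ones, and a match is a description of the letters only.

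The 250 bases upstream of the RefSeq start are shown for 4 members with an E-box, which stands in capitals. These members were picked because they fell (Eif4g1 and Eif4a1) or rose (Eif3f and Eif3k). The window of Eif4g1 lies within the GENCODE span of that gene, which begins at base 20668313. Eif4g1 lies on the plus strand at chr16:20672477-20672726, Eif4a1 on the minus strand at chr11:69672424-69672673, Eif3f on the plus strand at chr7:108934165-108934414 and Eif3k on the minus strand at chr7:28981889-28982138, each read 5′ to 3′ toward the gene.
Eif4g1: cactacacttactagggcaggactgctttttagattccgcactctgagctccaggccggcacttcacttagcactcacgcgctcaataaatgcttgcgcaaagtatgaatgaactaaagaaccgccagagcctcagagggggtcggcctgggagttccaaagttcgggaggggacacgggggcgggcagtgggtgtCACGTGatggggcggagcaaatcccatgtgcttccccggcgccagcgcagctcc
Eif4a1: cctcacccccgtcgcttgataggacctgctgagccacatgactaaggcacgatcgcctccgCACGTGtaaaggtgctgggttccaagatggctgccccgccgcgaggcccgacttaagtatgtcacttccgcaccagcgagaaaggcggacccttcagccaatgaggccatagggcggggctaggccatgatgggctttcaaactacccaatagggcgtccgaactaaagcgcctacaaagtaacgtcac
Eif3f: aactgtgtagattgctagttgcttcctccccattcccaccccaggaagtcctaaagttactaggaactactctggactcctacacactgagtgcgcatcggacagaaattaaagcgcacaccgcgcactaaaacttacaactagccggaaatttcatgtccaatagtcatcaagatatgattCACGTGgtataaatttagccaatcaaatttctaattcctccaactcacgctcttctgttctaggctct
Eif3k: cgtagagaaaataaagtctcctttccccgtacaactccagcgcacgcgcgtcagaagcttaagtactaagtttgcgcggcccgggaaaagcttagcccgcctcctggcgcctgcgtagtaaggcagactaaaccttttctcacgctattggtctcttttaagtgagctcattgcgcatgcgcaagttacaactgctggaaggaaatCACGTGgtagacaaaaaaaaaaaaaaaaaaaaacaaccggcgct
The distance from the first base of the E-box to the RefSeq start was 54 bases in Eif4g1, 189 in Eif4a1, 68 in Eif3f and 44 in Eif3k. That the letters occur in members of opposite direction follows here from how these members were picked.

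A start with C followed by 4 pyrimidines, as in mRNAs with a terminal oligopyrimidine start, was found at the annotated start of 2 of 48 members (4.17%) and of 3.01% of all genes. These were Eif3f, which was higher in RAB6A siRNA, and Eif2s3x, which was lower. The windows of 30 bases around both starts are shown on the sense strand (Eif3f at chr7:108934405-108934434, plus strand, and Eif2s3x at chrX:94212632-94212661, minus strand), with the pyrimidine run of 11 bases from the start in capitals.
Eif3f: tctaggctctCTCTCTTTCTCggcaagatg
Eif2s3x: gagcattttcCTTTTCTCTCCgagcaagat
The RefSeq start of a gene is a single annotated base, and starts used in these cells were not measured.

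The eIF4F complex and its helpers held the members that fell most. Eif4g2 encodes DAP5, a scaffold that lacks the eIF4E site. It had 203, 195 and 183 FPKM in NC, 216, 210 and 204 FPKM in SFRP2 siRNA, and 54.2, 55.9 and 65.5 FPKM in RAB6A siRNA. Every RAB6A siRNA library lay far below the other 6. The difference from NC was -1.73 ± 0.08 (SE) on the log2 scale, 3.31-fold lower (limma, adjusted p = 2.94e-06). Eif4g1, the main scaffold of eIF4F, had 126, 119 and 119 FPKM in NC against 39.5, 43.9 and 44.2 FPKM in RAB6A siRNA. It was 2.85-fold lower (log2 fold change -1.51 ± 0.06 SE; limma, adjusted p = 1.86e-06), and its values in SFRP2 siRNA (125, 119 and 117 FPKM) overlapped NC. The third scaffold gene, Eif4g3, fell less, by 0.45 on the log2 scale (limma, adjusted p = 2.58e-04).

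The cap-binding protein itself did not follow the scaffolds. Eif4e had 41.4, 44.6 and 41.9 FPKM in NC, 44.2, 45.5 and 47.4 FPKM in SFRP2 siRNA, and 38.7, 39.6 and 39.7 FPKM in RAB6A siRNA. The RAB6A siRNA values lay just under those of NC without overlap, with a log2 fold change of -0.11 ± 0.05 (SE) that did not pass (limma, adjusted p = 0.0843) and that turned positive (0.09) when GC content and gene length were corrected for. The FPKM of Eif4g1 was 2.85 ± 0.187 times (SD, n = 3) that of Eif4e in NC and 1.08 ± 0.0522 times in RAB6A siRNA, without overlap (exact permutation test, two-sided p = 0.1, the smallest that 3 libraries against 3 allow). This ratio was chosen after the values were seen. Among the relatives of eIF4E, Eif4e2 (4EHP, which represses the mRNAs it binds) had a log2 fold change of -0.07 and did not pass. With that correction Eif4e2 was called higher (0.22, limma adjusted p = 0.0060). Eif4e3, the least abundant cap-binding relative at 3.67 FPKM in NC, was higher by 0.41 (limma, adjusted p = 0.00339), and by 0.62 with that correction. Exons of Eif4e3 share 373 bases with Gm20696 on the same strand.

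The helicase genes moved in opposite directions. Eif4a1, the helicase of eIF4F, had 189, 190 and 194 FPKM in NC and 118, 132 and 119 FPKM in RAB6A siRNA (log2 fold change -0.63 ± 0.06 SE; limma, adjusted p = 5.70e-05). Its close relative Eif4a2 had 30.1, 26.7 and 26.8 FPKM in NC and 38.5, 38.1 and 36.7 FPKM in RAB6A siRNA (0.44 ± 0.06 SE; limma, adjusted p = 4.94e-04). The groups did not overlap for either gene, and Eif4a1 remained the more abundant helicase in every library. Eif4a3, the helicase of the exon junction complex, fell by 0.75, and the helicase stimulators Eif4h and Eif4b fell by 0.55 and 0.41. With the GC and length correction the fall of Eif4a1 was 0.30, that of Eif4g3 was 0.25 (0.30 after quantile normalization), and Eif4b was no longer called (-0.09, limma adjusted p = 0.287). The table also lists a processed pseudogene, Eif4a-ps4, at 121 to 128 FPKM in NC and 70.4 to 84.6 FPKM in RAB6A siRNA, so that reads of the Eif4a genes may be divided between copies and their levels are uncertain.

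Of the 4E-BPs, Eif4ebp1 rose and Eif4ebp2 was not called. Eif4ebp1 had 23.7, 23.3 and 25.5 FPKM in NC, 23.6, 20.1 and 17.5 FPKM in SFRP2 siRNA, and 57.8, 60.4 and 53.8 FPKM in RAB6A siRNA. The RAB6A siRNA libraries were 2.37-fold higher than NC (log2 fold change 1.24 ± 0.07 SE; limma, adjusted p = 3.81e-06). Eif4ebp2, the second mTORC1-controlled inhibitor, had 14.4, 15.5 and 15.0 FPKM in NC and 14.7, 14.4 and 15.8 FPKM in RAB6A siRNA with a log2 fold change near 0 that was 0.25 with the GC and length correction (limma, adjusted p = 0.00763). Eif4ebp3 was rare, with 5 to 12 reads in NC and 16 to 24 in RAB6A siRNA, which are given as a description because of the filter. Its mean was 0.284 ± 0.106 FPKM (SD, n = 3) in NC and 0.763 ± 0.117 FPKM in RAB6A siRNA, and 501 exonic bases are shared on the same strand with AC115631.1. Eif4enif1, which carries eIF4E into the nucleus, fell by 0.52 (limma, adjusted p = 8.70e-05), and by 0.23 with the GC and length correction. The FPKM of Eif4ebp1 was 0.568 ± 0.0433 times (SD, n = 3) that of Eif4e in NC, 0.449 ± 0.0828 times in SFRP2 siRNA and 1.46 ± 0.0910 times in RAB6A siRNA, a ratio also chosen after the values were seen. RNA levels say nothing of the phosphorylation that controls these inhibitors.

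**Figure D2:**
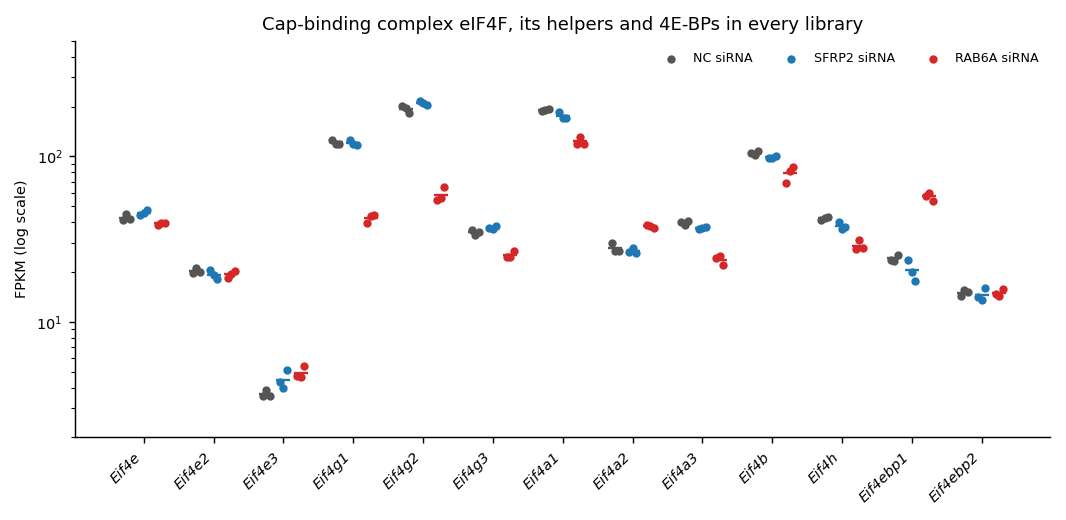
FPKM on a log scale of the eIF4F genes, their helpers and the 4E-BPs Eif4ebp1 and Eif4ebp2 in each of the 9 libraries, with a line at each group mean (3 libraries per group). The RAB6A siRNA points lie below NC for Eif4g1 (39.5 to 44.2 against 119 to 126 FPKM) and above NC for Eif4ebp1 (53.8 to 60.4 against 23.3 to 25.5 FPKM), while those of Eif4ebp2 overlap.

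The 14 genes of eIF3, the large complex that holds the small subunit and recruits mRNA, went both ways in the RAB6A siRNA libraries. Of these, 6 (42.9%) were higher, 6 (42.9%) lower and 2 not called, shares near the 37.6% and 36.5% of all genes, with a median log2 fold change of -0.01. Within the octamer core of the complex, 5 of 8 subunits were higher and 3 were lower. Eif3a, the largest core subunit, had 118, 124 and 116 FPKM in NC and 39.5, 47.1 and 62.4 FPKM in RAB6A siRNA, so that the replicates were spread but stayed below NC (log2 fold change -1.29 ± 0.15 SE; limma, adjusted p = 1.49e-04). The core subunit Eif3l fell by 0.89 (0.59 with the GC and length correction), and Eif3c fell by 0.33 but had -0.03 and was no longer called with that correction (limma, adjusted p = 0.610).

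Eif3f, a core subunit of the MPN type, moved the other way. It had 29.4, 30.7 and 33.0 FPKM in NC, 29.5, 28.8 and 27.5 FPKM in SFRP2 siRNA, and 72.1, 75.5 and 55.5 FPKM in RAB6A siRNA (1.11 ± 0.12 SE, 2.16-fold; limma, adjusted p = 8.77e-05). Eif3k, a small core subunit, had 49.7, 53.7 and 58.6 FPKM in NC and 96.4, 101 and 83.4 FPKM in RAB6A siRNA (0.79 ± 0.09 SE; limma, adjusted p = 1.45e-04). For both genes all RAB6A siRNA libraries lay above all others. The MPN subunit Eif3h, the most abundant eIF3 RNA at 212 FPKM in NC, was higher by 0.43, but by 0.07 and not called after quantile normalization, and the core subunits Eif3e and Eif3m were higher by 0.38 and 0.22. Eif3e was higher by 0.25 with the GC and length correction, and Eif3m by 0.37 after quantile normalization.

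Outside the core, Eif3b, the scaffold of the module it forms with Eif3g and Eif3i, fell by 0.97 (limma, adjusted p = 3.92e-06), while Eif3g (-0.12) and Eif3i (0.10) did not pass. With the GC and length correction both were called, at -0.22 and 0.42. Eif3d, a subunit with cap-binding activity, was called higher by 0.17 but lost the call when NC replicate 1, 2 or 3 or RAB6A siRNA replicate 2 or 3 was left out (limma, adjusted p between 0.0512 and 0.112). It was higher by 0.46 with the GC and length correction and by 0.28 after quantile normalization. Exons of Eif3d overlap Gm17638 on the opposite strand over 2151 bases, and it is not stated whether reads were counted by strand. Eif3j1 and Eif3j2, near-identical genes of a loosely bound subunit, were both lower (-0.67 and -0.89), and their reads may be divided between them. Exons of Eif3j1 also overlap Spg11 on the opposite strand over 1107 bases. Eif3j1 had -0.38 with the GC and length correction, and with the replicate block as well it was no longer called (limma, adjusted p = 0.0723). The summed FPKM of the eIF3 genes was 945 ± 8.41 (SD, n = 3) in NC and 917 ± 48.1 (SD, n = 3) in RAB6A siRNA, and the groups overlapped (exact permutation test, two-sided p = 0.5).

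**Figure D3:**
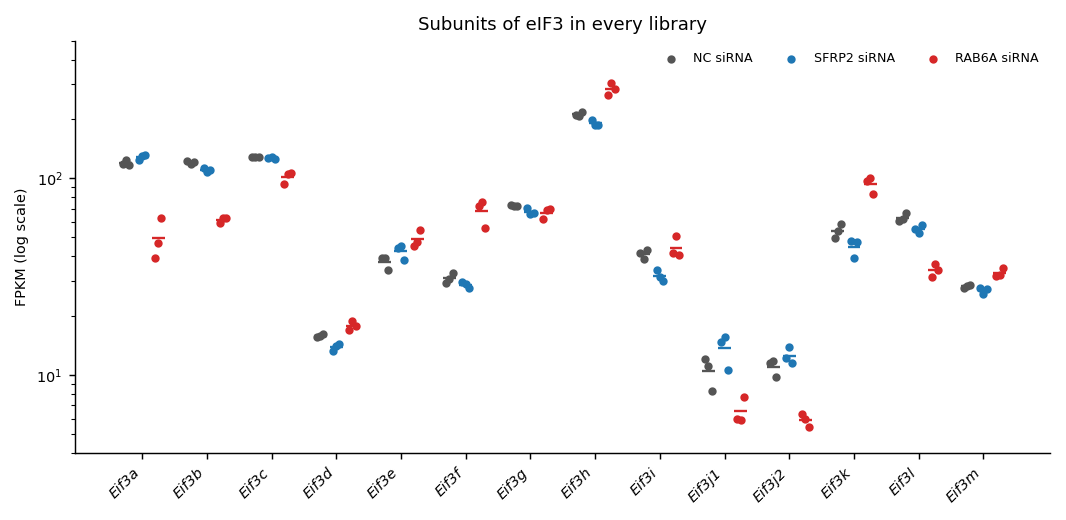
FPKM on a log scale of the 14 eIF3 genes in each of the 9 libraries, with a line at each group mean (3 libraries per group). The RAB6A siRNA points lie above NC for Eif3f (55.5 to 75.5 against 29.4 to 33.0 FPKM) and below NC for Eif3a (39.5 to 62.4 against 116 to 124 FPKM).

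The ternary complex and its exchange factor were mostly lower in RAB6A siRNA. Eif2s1, the alpha subunit of eIF2 that is phosphorylated in the integrated stress response, had 42.1, 41.2 and 38.4 FPKM in NC and 21.1, 23.8 and 23.0 FPKM in RAB6A siRNA (-0.84 ± 0.07 SE; limma, adjusted p = 2.14e-05). Eif2s2, the beta subunit, fell by 0.59 (limma, adjusted p = 0.00225). The gamma subunit has an X-linked and a Y-linked gene, and these differed. Eif2s3x had 44.9, 43.7 and 45.9 FPKM in NC and 18.6, 19.8 and 25.5 FPKM in RAB6A siRNA (-1.09 ± 0.11 SE; limma, adjusted p = 8.34e-05). It had -0.76 with the GC and length correction. Eif2s3y had 22.3, 22.9 and 20.6 FPKM in NC and 20.9, 22.0 and 24.0 FPKM in RAB6A siRNA, and the groups overlapped.

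Of the 5 subunits of eIF2B, which reloads eIF2 with GTP, 4 were lower and 1 was higher, where 36.5% and 37.6% of all genes were. Eif2b1, the alpha subunit, had 19.8, 19.0 and 19.8 FPKM in NC and 9.80, 9.93 and 9.40 FPKM in RAB6A siRNA, 2.00-fold lower (SE 0.05 on the log2 scale; limma, adjusted p = 4.53e-06). Its log2 fold change was -0.79 with the GC and length correction. The gamma, delta and epsilon subunits (Eif2b3, Eif2b4 and Eif2b5) fell by 0.61, 0.78 and 0.61, and Eif2b3 by 0.30 with the GC and length correction. The beta subunit Eif2b2 was higher by 0.19 (limma, adjusted p = 0.0170), a call that was lost with the GC and length correction (0.08), where quantile normalization gave 0.35, and without NC replicate 2 (limma, adjusted p = 0.0650) or RAB6A siRNA replicate 2 (limma, adjusted p = 0.0617). Of the factors that can deliver initiator tRNA without eIF2, Eif2d had 5.30, 5.49 and 5.54 FPKM in NC and 7.89, 7.82 and 7.79 FPKM in RAB6A siRNA (0.52 ± 0.06 SE; limma, adjusted p = 1.21e-04). Eif2a had a log2 fold change of 0.24 that did not pass (limma, adjusted p = 0.0628) and was 0.41 and called with the GC and length correction, as it was without RAB6A siRNA replicate 1 (0.30, limma adjusted p = 0.0462).

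Genes of the eIF1 family by name and those of eIF5, eIF5B and eIF6 included several large falls. Eif1ad, a protein with an eIF1A-like domain, had 23.4, 23.4 and 23.0 FPKM in NC and 7.14, 9.43 and 9.15 FPKM in RAB6A siRNA (-1.44 ± 0.11 SE, 2.71-fold lower; limma, adjusted p = 1.43e-05), and its exons share 428 bases with Banf1 on the opposite strand. Eif5, which triggers GTP hydrolysis by eIF2, had 57.0, 55.6 and 46.7 FPKM in NC and 19.9, 20.0 and 25.2 FPKM in RAB6A siRNA (-1.29 ± 0.12 SE; limma, adjusted p = 3.79e-05). Eif5b, the GTPase of subunit joining, had 48.7, 52.7 and 44.8 FPKM in NC and 19.9, 19.5 and 26.6 FPKM in RAB6A siRNA (-1.16 ± 0.13 SE; limma, adjusted p = 1.08e-04). For these genes the groups were well separated. Eif5b had -0.90 with the GC and length correction, and its exons overlap Rev1 on the opposite strand over 1643 bases. Eif6, which keeps the large subunit from joining early, fell by 0.60 (limma, adjusted p = 6.71e-04).

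The genes of eIF1 and eIF1A differed between paralogs. Eif1a had 38.4, 39.0 and 34.8 FPKM in NC and 18.7, 18.7 and 19.2 FPKM in RAB6A siRNA (-0.98 ± 0.06 SE; limma, adjusted p = 7.54e-06). Its X-linked relative Eif1ax had 36.6, 36.1 and 35.2 FPKM in NC and 35.8, 37.2 and 35.7 FPKM in RAB6A siRNA, and the groups overlapped. Eif1ax was called higher after quantile normalization (0.18, limma adjusted p = 0.0120) and with the GC and length correction (0.18, limma adjusted p = 0.0242). Eif1 had a log2 fold change of -0.08 and Eif1b of 0.36, and the value of Eif1b was 0.00 with the GC and length correction (limma, adjusted p = 0.991).

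Of 13 paralog pairs, 11 had enough reads for a ratio of FPKM in each library, which gave 22 comparisons with NC. Ratios and shares were not computed with the GC and length correction. In RAB6A siRNA the share of the second gene shifted in the same way in all 3 libraries for several pairs. Eif4a2 made up 12.1% to 13.7% of Eif4a1 plus Eif4a2 in NC and 22.4% to 24.6% in RAB6A siRNA. Eif1ax made up 48.1% to 50.3% of Eif1a plus Eif1ax in NC, 41.9% to 45.2% in SFRP2 siRNA and 65.0% to 66.5% in RAB6A siRNA. Eif2s3y made up 30.9% to 34.4% of its pair in NC and 48.5% to 53.0% in RAB6A siRNA. For these 3 pairs the RAB6A siRNA and NC libraries did not overlap. Eif4a1 to Eif4a3, Eif4e to Eif4e2 and Eif3j1 to Eif3j2 overlapped between RAB6A siRNA and NC. The smallest p of the exact two-sided permutation test was 0.1 for a pair, and the smallest adjusted p was 0.169, so that no pair could pass.

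**Figure D4:**
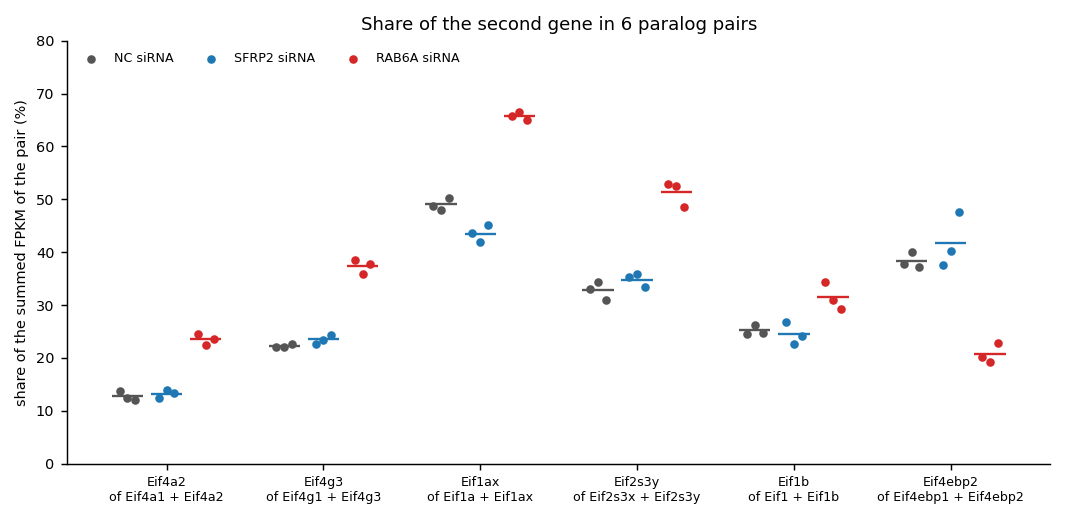
Share in percent of the second gene in the summed FPKM of 6 paralog pairs, in each of the 9 libraries with a line at each group mean (3 libraries per group). The RAB6A siRNA points lie above NC for Eif4a2, Eif4g3, Eif1ax, Eif2s3y and Eif1b, and below NC for Eif4ebp2 (19.2% to 22.7% against 37.1% to 40.0%). Shares are from FPKM without the GC and length correction. With it, the log2 fold changes of Eif1 and Eif1b in RAB6A siRNA were 0.0086 and -0.00079.

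In elongation, the most abundant member rose. Eef1a1 had 2648, 2803 and 2922 FPKM in NC, 2497, 2492 and 2622 FPKM in SFRP2 siRNA, and 4368, 5033 and 4857 FPKM in RAB6A siRNA (0.77 ± 0.10 SE, 1.70-fold; limma, adjusted p = 2.89e-04). This call was lost when no filter on low values was applied (limma, adjusted p = 0.0504). Its share of the summed FPKM of all members went from 38.5% to 40.5% in NC to 55.3% to 56.0% in RAB6A siRNA. Without Eef1a1 and Eef2, the summed FPKM of the other members was 3025 ± 24.4 (SD, n = 3) in NC and 2563 ± 105 (SD, n = 3) in RAB6A siRNA, without overlap (exact permutation test, two-sided p = 0.1, the smallest possible).

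Eef2 did not follow Eef1a1 in RAB6A siRNA. It had 1185, 1162 and 1299 FPKM in NC and 1080, 1290 and 1281 FPKM in RAB6A siRNA, and the groups overlapped (limma, adjusted p = 0.991). After quantile normalization it was called lower (-0.34, limma adjusted p = 0.0123). Its kinase Eef2k was low throughout, with 0.448, 0.424 and 0.498 FPKM in NC and 0.175, 0.282 and 0.128 FPKM in RAB6A siRNA, and was not tested. The RAB6A siRNA values of Eef2k came from 31 to 79 reads and lay below all NC libraries, which had 138 to 157 reads.

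The exchange complex that recharges eEF1A was divided. Eef1b2, a catalytic subunit, had 114, 123 and 126 FPKM in NC and 180, 200 and 191 FPKM in RAB6A siRNA (0.65 ± 0.07 SE; limma, adjusted p = 6.97e-05). The structural subunit Eef1g was higher by 0.36 (0.15 after quantile normalization), while Eef1d, the other catalytic subunit, fell by 0.27 (limma, adjusted p = 0.00893) and was not called after quantile normalization (-0.15, limma adjusted p = 0.0667) or with the GC and length correction (0.04). Eef1e1, an auxiliary protein of the multisynthetase complex, fell by 0.84 (limma, adjusted p = 2.27e-05), and by 0.54 with that correction. Eif5a, the hypusinated factor that relieves stalled ribosomes, had 260, 234 and 232 FPKM in NC and 219, 218 and 181 FPKM in RAB6A siRNA. Its log2 fold change of -0.23 was at the threshold (limma, adjusted p = 0.0499), and the call was lost without NC replicate 1, 2 or 3 or RAB6A siRNA replicate 3 (limma, adjusted p between 0.0691 and 0.158), while quantile normalization gave -0.58.

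Of the lysine methyltransferases, Eef1akmt1, Eef1akmt2 and Eef1akmt4, which act on eEF1A, fell by 0.72, 0.39 and 0.81, and Eef1akmt3 (-0.06) did not pass. Eef1akmt1 fell by 1.09 with the GC and length correction. The call of Eef1akmt2 was lost without NC replicate 2 (-0.33, limma adjusted p = 0.0548), and exons of Eef1akmt4 share 495 bases with Gm49333 on the same strand. Eef2kmt, which acts on eEF2, had 3.22, 3.18 and 4.47 FPKM in NC and 5.10, 5.28 and 5.13 FPKM in RAB6A siRNA (0.52 ± 0.13 SE; limma, adjusted p = 0.00844). Its exons share 472 bases with Alg1 on the opposite strand.

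**Figure D5:**
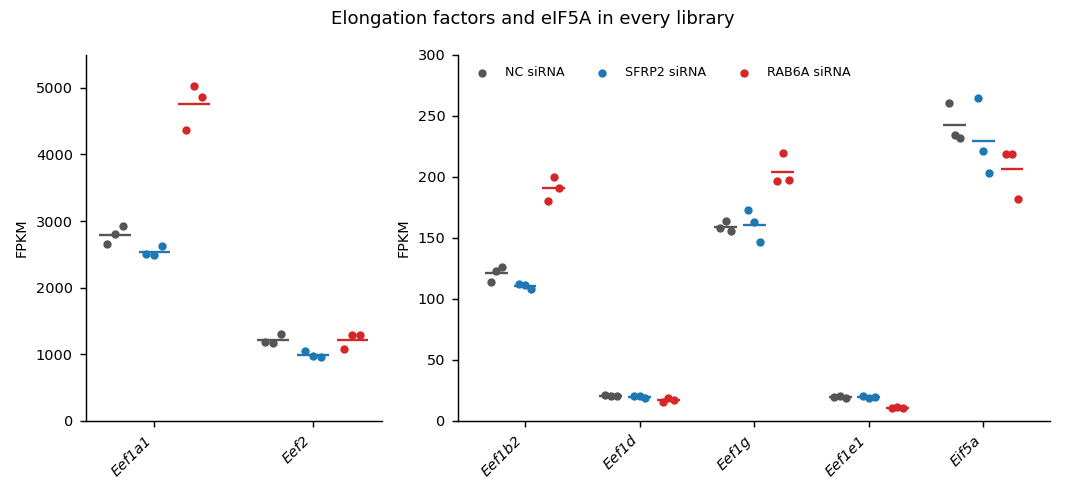
FPKM of Eef1a1 and Eef2 (left) and of Eef1b2, Eef1d, Eef1g, Eef1e1 and Eif5a (right) in each of the 9 libraries, on linear axes from 0, with a line at each group mean (3 libraries per group). Eef1a1 lies between 4368 and 5033 FPKM in RAB6A siRNA, above all other libraries, while Eef2 overlaps between RAB6A siRNA and NC.

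Other genes of the pathway, 36 in all and 35 past the filter, also went both ways in RAB6A siRNA, with 9 (25.7%) higher and 15 (42.9%) lower, where 37.6% and 36.5% of all genes were, and a median log2 fold change of -0.04. With the GC and length correction, 15 were higher and 15 lower. Among the eIF2 kinases, Eif2ak4 (GCN2, which senses uncharged tRNA) was higher by 1.05 and Eif2ak3 (PERK, of the endoplasmic reticulum) by 0.53 (0.81 with that correction), whereas Eif2ak2 (PKR, which binds double-stranded RNA) fell by 1.45. Ppp1r15a (GADD34), the inducible phosphatase subunit that acts on eIF2, was higher by 1.14 (limma, adjusted p = 2.41e-05). The inhibitor of eIF4A, Pdcd4, was higher by 1.69, and Paip2, which binds poly(A)-binding protein, by 0.95. Mknk2 and Mknk1, the kinases that phosphorylate eIF4E, were higher by 1.17 and 0.53.

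Of the genes around mTORC1, Larp1, which binds mRNAs with a terminal oligopyrimidine start, fell by 1.45, and Mtor and Rps6kb1 fell by 0.60 and 0.61. Rps6kb2 was higher by 0.88. All 3 termination and recycling genes tested were lower, where 36.5% of all genes were. Etf1 was at -1.13, Abce1 at -1.02 and Gspt1 at -0.89 (-0.57 with the GC and length correction). All 3 diphthamide genes, which modify eEF2, were lower too, led by Dph2 at -2.10 (limma, adjusted p = 2.01e-05). Pabpc1, poly(A)-binding protein, did not pass (-0.04), but was called lower after quantile normalization (-0.51, limma adjusted p = 0.0194) and higher with that correction (0.27, limma adjusted p = 0.0173).

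In the comparison of SFRP2 siRNA with NC, limma called 0 of 59 members and 0 of 12017 genes (0% of all genes tested). At an unadjusted p under 0.05, 15 members were lower and 5 higher, where 10.7% of all genes were lower and 7.73% higher. The median log2 fold change was -0.07 over the members and -0.01 over all genes tested, and the members ranged from -0.37 to 0.38. The groups did not overlap for 21 members with lower and 6 with higher values, where 13.9% and 10.9% of all genes did so. The counts at an unadjusted p under 0.05 depended on single libraries, and so did the shares of all genes, given in brackets. Without NC replicate 3, 7 members were lower and 0 higher (6.52% and 4.05%). The counts were 7 and 1 without SFRP2 siRNA replicate 2 (7.32% and 3.92%). Without SFRP2 siRNA replicate 1 they were 19 and 2 (12.5% and 5.59%), and without SFRP2 siRNA replicate 3 they were 9 and 7 (8.79% and 10.6%). Without NC replicate 1 they were 11 and 2 (8.3% and 8.04%), and without NC replicate 2 they were 10 and 7 (10.3% and 6.38%). After quantile normalization 10 members were lower and 11 higher, where 9.79% and 9.62% of all genes were. With median-of-ratios scaling 14 were lower and 7 higher (9.80% and 9.65% of all genes), with voom 15 and 8 (11.5% and 9.14%), and with the GC and length correction 10 and 1 (7.80% and 5.33%). With the replicate block 18 were lower and 12 higher (13.1% and 11.7%).

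Eif3i had the smallest p of the members in this comparison. It had 41.8, 38.7 and 43.4 FPKM in NC and 34.0, 31.5 and 30.05 FPKM in SFRP2 siRNA, without overlap, a log2 fold change of -0.37 ± 0.07 (SE; limma, adjusted p = 0.163). With voom on the recovered reads it was the member called (-0.38, adjusted p = 0.0412), among 34 lower and 7 higher genes of 11680. Eef2 had 1047, 972 and 963 FPKM in SFRP2 siRNA, below all NC libraries (-0.29 ± 0.07 SE; limma, adjusted p = 0.177), and -0.17 with the GC and length correction. Eif1ax had 31.8, 31.7 and 31.3 FPKM in SFRP2 siRNA, also below NC (-0.18 ± 0.04 SE; limma, adjusted p = 0.168), and had -0.33 with that correction.

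Among the higher values, Eif2s2 had 92.4, 96.7 and 101 FPKM in SFRP2 siRNA and 82.7, 92.0 and 82.7 FPKM in NC (0.17 ± 0.06 SE; limma, adjusted p = 0.214). Eif5 had 67.3, 69.5 and 57.2 FPKM in SFRP2 siRNA (0.28 ± 0.10 SE; limma, adjusted p = 0.219), just above NC. Eif5b had 55.9, 61.3 and 52.7 FPKM in SFRP2 siRNA and overlapped NC (0.22 ± 0.08 SE; limma, adjusted p = 0.227). With the GC and length correction these differences were 0.0013 for Eif2s2, 0.17 for Eif5 and 0.13 for Eif5b. None of these 6 genes passed the adjustment with limma.

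When SFRP2 siRNA was compared with RAB6A siRNA directly, 32 of 59 members were higher and 17 lower in SFRP2 siRNA, where 35.8% and 37.6% of all 12764 genes tested were. With an absolute log2 fold change over 1, 10 were higher and 3 lower, where 13.3% and 17.8% of all genes were. Eif4g2 was again at the far end, at a log2 fold change of 1.85, and Eif4ebp1 at the other, at -1.49. With the GC and length correction 27 members were called higher and 21 lower, where 32.9% and 40.6% of 12576 genes were. The median log2 fold change of the members was 0.32, and 0.12 with that correction.

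Gene length moved with the difference in RAB6A siRNA. The exon length of the 17 members called higher (Eif4ebp3 included) had a median of 2590 bases, that of the members called lower 3990 bases. Across the 60 members tested, Spearman's rho between exon length and log2 fold change was -0.30, and -0.21 across 12535 genes with a known length, as a description across genes that share the same 6 libraries. This rho and the median of 2590 bases include Eif4ebp3, which had to differ and was the shortest of the 17 at 744 bases. They were not computed without it. With GC content and length corrected for, 19 of 60 members were higher and 29 lower, where 41.4% and 33.7% of 12535 genes were, and Eif4ebp3 was not called. The median log2 fold change was then -0.15 over the members and 0.09 over all genes, and Eif4g2 (-1.49), Eif4g1 (-1.35), Eif3a (-1.01), Eef1a1 (0.97), Eif3f (1.37) and Eif4ebp1 (1.39) kept their calls. In SFRP2 siRNA the difference moved with both, with rho for GC content at -0.51 across 59 members and -0.48 across 11903 genes, and rho for exon length at 0.39 and 0.17. In RAB6A siRNA rho for GC content was 0.08 over the members and 0.08 over all genes.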

How the data were processed

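RNA-seq of 9 RAW264.7 libraries was analysed. The authors deposited FPKM per Ensembl gene. HISAT2, featureCounts and Subread are named in the submitters' processing notes, and their versions, the genome build and the strand setting are not given in the sources used here. Of 28137 identifiers, 27533 were named from GENCODE M21 (GRCm38). For 98.4% of these, FPKM times exon length gave whole reads in every library (within 0.03 of a read), and these reads gave the depth.

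Differential expression was tested with limma 3.58.1 in R 4.3.3 (lmFit, eBayes with an intensity trend) on log2(FPKM + 0.1), with genes of at least 0.5 mean FPKM over the 6 libraries and Benjamini-Hochberg adjustment. The study's methods name a model of counts. The deposited values are FPKM, so limma on log2 values took its place, and that model was not run on the recovered reads. The thresholds of those methods (adjusted p below 0.05, and a log2 fold change beyond 1 in either direction) were kept as a stricter call. The fit was tested on simulated data. Alternatives were pseudocounts of 0.01 and 1, no filter and a filter of 1 FPKM, median-of-ratios and quantile scaling, no trend, a block, all 9 libraries in the fit, a spline correction (5 degrees of freedom each) for GC content and exon length, voom on the recovered reads and leaving out each library. Ratios and sums were compared with exact two-sided permutation tests over libraries in Python 3.11.15 with scipy 1.17.1.

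Named members were, per comparison with NC, the 8 largest rises and falls among called members without overlap, or the 3 smallest unadjusted p in a direction where fewer than 3 passed, together with the central factors, the members of 13 paralog pairs and members under the filter. Other members and the other pathway genes are given by role. The members and lists were chosen with earlier results of these data known. Promoters are from RefSeq. Protein sequences and RNA-seq of wound tissue were not used here.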

Additional observations from a re-analysis of the deposited data

How the results depend on the processing

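Of the 49 members called in RAB6A siRNA against NC, Eif4ebp3 included, 37 were called in the same direction under every alternative run and 12 were lost or reversed under 1 or more. Libraries with the same replicate number did not deviate together (correlations from -0.0847 to 0.0477 over 9 pairs, against -0.116 to 0.0815 for different numbers), so the number was not used as pairing. The counts were 17 higher and 32 lower, where 37.6% and 36.5% of all genes were. With the replicate block they were 15 and 32 (36.6% and 35% of all genes). With the GC and length correction they were 19 and 29 (41.4% and 33.7%). When a library was left out they were 14 to 17 and 30 to 32 (34.8% to 36.7% and 33.4% to 36.5%). With the replicate block, Eif2b2 and Eif3d lost their calls (limma, adjusted p = 0.0511 and 0.0646), and no member gained one. With the block and the correction together, Eif2b2, Eif3c, Eif3j1, Eif4b and Eif4ebp3 lost their calls. Eef1d and Eif1b changed sign and were not called in that setting, while Eif3d kept its call. Eif2a, Eif3g and Eif3i gained a call there, as did Eif4e2 and Eif4ebp2 with a changed sign. In SFRP2 siRNA against NC, 0 members were called with and without the replicate block, while voom on the recovered reads called 1 lower. The smallest adjusted p over all genes tested was 0.140 without the block and 0.0529 with it (limma). In SFRP2 siRNA against RAB6A siRNA, 10 members were higher and 3 lower past an absolute log2 fold change of 1, where 13.3% and 17.8% of all genes were. With the GC and length correction 6 were higher and 5 lower, where 1525 and 2073 of 12576 genes were. With the replicate block as well they were again 6 and 5, where 1530 and 2080 of 12576 genes were.

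The log2 fold changes in RAB6A siRNA that changed sign under an alternative lay between -0.27 and 0.36. With the GC and length correction, with or without the replicate block, they became 0.17 for Eef1akmt3, 0.039 for Eef1d, 0.072 for Eef2, 0.0086 for Eif1, -0.00079 for Eif1b, -0.061 for Eif2s3y, 0.089 for Eif4e, 0.22 for Eif4e2 and 0.25 for Eif4ebp2. With quantile normalization they became 0.079 for Eif1, 0.044 for Eif4e, 0.045 for Eif4e2 and 0.11 for Eif4ebp2. With median-of-ratios scaling they became 0.0057 for Eef2 and 0.0046 for Eif4ebp2, and with voom 0.0024 for Eef2 and 0.00072 for Eif4ebp2. When a library was left out, they ranged from -0.17 to 0.015 for Eef1akmt3, -0.046 to 0.083 for Eef2, -0.18 to 0.0084 for Eif1, -0.0088 to 0.023 for Eif1ax, -0.030 to 0.068 for Eif2s3y and -0.044 to 0.026 for Eif4ebp2. The cause of these changes was not tested. With 3 libraries per group the exact tests cannot go below p = 0.1, and for members such as Eif4ebp3 and Eef2k the number of reads limits the precision.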
